A study of Mus musculus with 16 samples.

Results

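The genes described here are 46 genes whose products copy DNA, drive cells through mitosis or divide the cell in cytokinesis. They were taken from a list of gene symbols by function, and all 46 were among the 24421 genes of each of 3 tables of normalised read counts, for embryonic day (E) 7.5, E8.5 and E9.5. The tables come from mouse embryos lacking miR-302, a group of microRNAs made from 1 gene cluster and abundant in pluripotent cells, and from wild-type embryos. At E9.5, 24 of the 46 genes were lower and 7 were higher in miR-302 knockout cells than in wild-type cells, where 47.5% of all genes tested were called, 23% lower and 24.5% higher. At E7.5 and at E8.5 none of the 46 passed the same test. Of the 31 called at E9.5, 18 were still called after a trend over transcript length was removed from each library. The E9.5 split followed the length of the transcripts: the genes that were higher had mostly short transcripts and those that were lower had mostly long ones, as held over all genes of that stage.

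A dividing cell loads the MCM helicase onto replication origins in G1 with the help of Cdc6 and Cdt1. Cyclin E with Cdk2 then starts S phase, and E2F transcription factors switch on the genes for replication and nucleotide supply. Cyclins A and B with Cdk1 drive the entry into mitosis, and the spindle checkpoint holds the anaphase-promoting complex back until chromosomes are attached. Cytokinesis proteins then build the central spindle and the contractile ring. Early mouse embryos and migrating neural crest, which emigrates from the dorsal neural tube and gives rise to peripheral neurons, glia, pigment cells and facial skeleton, both proliferate. The miR-302 family is known from embryonic stem cells for promoting the passage from G1 to S phase.

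RNA was sequenced from 15 libraries of C57BL/6 embryos. At E7.5 these were 2 libraries of whole KO embryos and 2 of whole WT embryos. At E8.5 they were 4 KO and 3 WT libraries of sorted Wnt1-Cre-positive neural crest, described in the labels as cells before and after migration. At E9.5 they were 2 KO and 2 WT libraries of sorted Sox10-positive neural crest after migration. The labels give the genotype as KO or WT, and neither the deleted allele nor the reporter used for sorting is described in them. The E8.5 KO library titled KO4_5s was left out of the analysis. The E8.5 WT library called WT1 here is titled WT1_5s, with the same tag and the same sample code, 163. The labels do not tell whether libraries of a group came from separate embryos or litters, so p-values measure the spread between these libraries, which may be technical.

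Depth, as reads assigned to genes per library, was 4912827 to 9184436 for the E7.5 embryos, 9008784 to 13517860 for the E8.5 crest and 7300598 to 14861728 for the E9.5 crest. The 4 miR-302 precursor rows together held 0 reads in each KO library at E7.5, against 14 and 25 reads in the WT libraries. At the later stages they held 0 reads in each KO library and at most 1 read in any WT library, so they check the genotype at E7.5 only. Replicate libraries differed from each other by more than counting error, with a chi-square of 8.67 to 98.4 per gene, so none was taken for another one deposited again. This does not show that they are separate biological samples. Neural crest markers Sox9 and Sox10 were among the highest of their list in both sorted populations. The summed level of 13 neural crest markers at E9.5 was 2604 and 4400 in KO libraries, against 6213 and 5948 in WT libraries. Sums of other marker lists differed in direction, and for most of them both KO libraries lay above both WT libraries. Visceral endoderm markers summed to 797 and 2434 in KO libraries, against 31.4 and 26.2 in WT libraries. Globins and other erythroid genes summed to 277070 in KO1 and 559 in KO2, against 193 and 175 in WT libraries. Immune markers summed to 227 and 459 in KO libraries, against 40.5 and 41.9 in WT libraries. Uterine gland and decidua markers summed to 573 and 546 in KO libraries, against 190 and 153 in WT libraries. Epiblast sums were 1209 and 772 against 679 and 739, and neural tube sums 592 and 559 against 487 and 369. Neuron sums were 603 and 2026 against 859 and 595. Trophoblast markers summed to 185 and 134 in KO libraries, against 214 and 208 in WT libraries, and endothelial markers to 35.9 and 10.2 in KO libraries, against 33.4 and 26.7 in WT libraries. In each of these last lists only 1 gene reached a stage mean of 10. The sample code in the labels is 171 for both E9.5 KO libraries and 209 for both WT libraries, so code and genotype cannot be told apart at that stage. In bulk libraries such as these, fewer dividing cells and less RNA per cell cannot be told apart either.

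The mature miR-302 sequences from RefSeq (GRCm38.p6, chromosome 3, plus strand) are shown because a target of the deleted cluster would pair with their seed, bases 2 to 8, printed here in capitals. The annotated miR-302c starts a base later, so its capitals are shifted although it holds the same AAGUGCUU run.
miR-302b-3p: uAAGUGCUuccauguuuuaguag
miR-302c-3p: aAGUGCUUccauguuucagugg
miR-302d-3p: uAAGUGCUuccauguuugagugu

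The heptamers AGCACTT and GCACTTA, which pair with that seed, were searched on the sense strand of the longest annotated 3′UTR (GENCODE M21). They occurred in 9 of the 46 genes (19.6%), against 3660 of 20128 genes with a 3′UTR (18.2%). The octamer that contains both occurred in none of the 46 and in 3.04% of all genes. The 9 genes were Mcm6, Cdc6, Cdt1, Tyms, Cdk2, Cdc25b, Cenpf, Cep55 and Ect2, and Tyms held 3 sites. The following sites, on mm10, carry the heptamer in capitals, and they are shown because Cep55 and Ect2 were among the genes with the smallest p-values at E8.5 and Tyms held the most sites.
Cep55, chr19:38073746-38073752, plus strand: atccaaacttgtAGCACTTcacgctgttg
Ect2, chr3:27098331-27098337, minus strand: gtactttgaattAGCACTTggtaaagttg
Tyms, chr5:30060532-30060538, minus strand: acttcaggtagaAGCACTTgcagtccctc
Tyms, chr5:30059265-30059271, minus strand: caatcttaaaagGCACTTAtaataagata
Tyms, chr5:30058957-30058963, minus strand: aggagattcaatGCACTTAggtttttttt

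The median log2 fold change, KO over WT, was -0.04 at E7.5 for the 9 genes with a match and -0.09 for the 37 without. At E8.5 the medians were 0.17 with a match and 0.03 without, and at E9.5 they were -1.04 with and -0.61 without. Positive fold changes were found for 3 of the 9 genes with a match and 15 of the 37 without at E7.5, for 8 of 9 and 21 of 37 at E8.5, and for 1 of 9 and 12 of 37 at E9.5. These are descriptions of few genes, and a match is not evidence of a working site.

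The promoters of genes expressed in S phase and in mitosis are known to differ in sequence. E2F sites are typical of replication genes, and the cell cycle homology region (CHR, TTTGAA) and CCAAT boxes are typical of genes expressed in G2 and mitosis. RefSeq promoters, 250 bases before to 50 bases after the start, were matched for 39 of the 46 genes and searched on both strands. CHR was found in 19 of the 39 (48.7%), against 20.2% of 27025 genes. CCAAT was found in 30 of the 39 (76.9%), against 41.1% of all genes. The E2F octamers TTTGGCGC, TTTCGCGC and TTTCCCGC were found in 9 of the 39 (23.1%), against 2.12% of all genes. E2F octamers lay in 6 of 7 promoters of the origin licensing genes, and CHR lay in all 6 promoters of the cytokinesis genes and in none of 4 replication fork or of 4 G1/S promoters. Cdk1 was the only one of the 39 with all 3 motifs. CHR was held by 4 of 7 promoters of genes higher in E9.5 KO cells, by 10 of 20 of those lower and by 5 of 12 of the rest, so the motif did not divide the genes by direction.

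**Figure D1:**
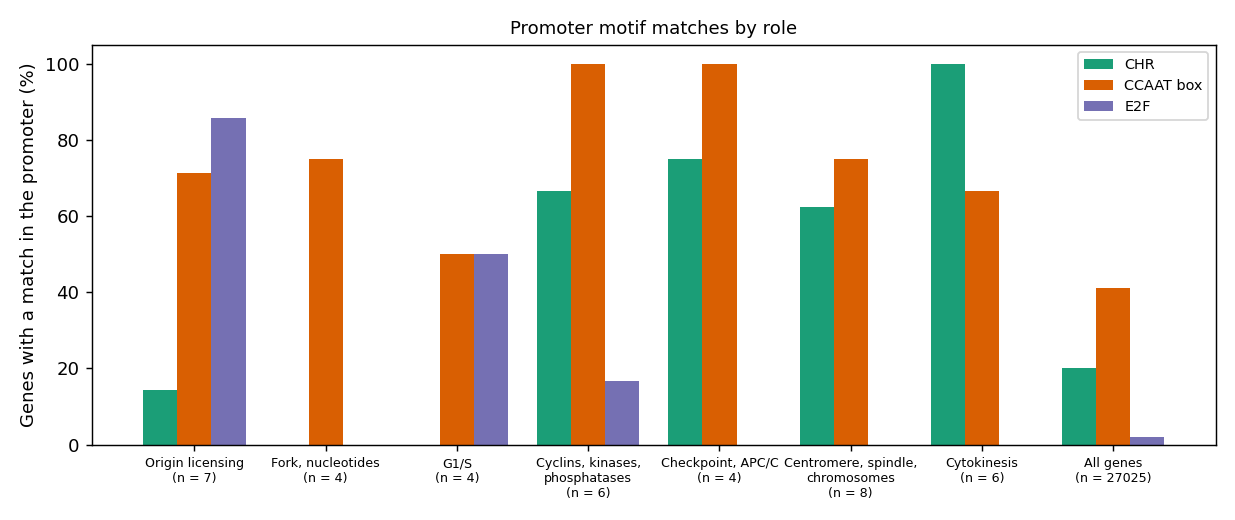
Share of promoters (y axis, %) holding a CHR, CCAAT box or E2F octamer, for the genes of each role with a RefSeq promoter (x axis, with their number) and for all 27025 genes. E2F octamers were most frequent in origin licensing promoters (6 of 7) and CHR in cytokinesis promoters (6 of 6).

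Promoters of 4 genes are printed because they show these arrangements in genes that moved in opposite directions at E9.5: Cdk1 and Ube2c were higher there in KO cells, and Top2a and Mcm3 were lower. Capitals mark CHR, CCAAT and the E2F octamers on either strand, so a motif on the other strand appears as its reverse complement, and each sequence is 300 bases of GRCm38.p6 read along the gene's strand. In Ube2c, a CCAAT on each strand overlap.
Cdk1, chr10:69352863-69353162, minus strand: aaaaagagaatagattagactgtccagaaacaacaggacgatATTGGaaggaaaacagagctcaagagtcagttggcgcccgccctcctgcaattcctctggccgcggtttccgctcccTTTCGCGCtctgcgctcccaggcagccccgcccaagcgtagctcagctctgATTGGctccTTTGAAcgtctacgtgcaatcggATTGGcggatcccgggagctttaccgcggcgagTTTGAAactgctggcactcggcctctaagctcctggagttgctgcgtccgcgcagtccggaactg
Ube2c, chr2:164769679-164769978, plus strand: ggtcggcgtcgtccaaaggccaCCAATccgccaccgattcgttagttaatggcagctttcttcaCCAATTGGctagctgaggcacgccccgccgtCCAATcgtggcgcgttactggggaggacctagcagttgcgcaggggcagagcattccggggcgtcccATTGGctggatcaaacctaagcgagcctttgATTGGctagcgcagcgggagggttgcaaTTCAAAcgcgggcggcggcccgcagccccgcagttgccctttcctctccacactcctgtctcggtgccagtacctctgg
Top2a, chr11:99024140-99024439, minus strand: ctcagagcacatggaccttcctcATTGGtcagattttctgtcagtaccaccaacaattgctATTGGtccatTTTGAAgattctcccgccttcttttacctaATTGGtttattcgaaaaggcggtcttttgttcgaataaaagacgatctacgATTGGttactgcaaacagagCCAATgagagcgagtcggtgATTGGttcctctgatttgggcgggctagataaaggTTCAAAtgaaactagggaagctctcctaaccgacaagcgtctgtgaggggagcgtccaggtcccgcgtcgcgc
Mcm3, chr1:20820263-20820562, minus strand: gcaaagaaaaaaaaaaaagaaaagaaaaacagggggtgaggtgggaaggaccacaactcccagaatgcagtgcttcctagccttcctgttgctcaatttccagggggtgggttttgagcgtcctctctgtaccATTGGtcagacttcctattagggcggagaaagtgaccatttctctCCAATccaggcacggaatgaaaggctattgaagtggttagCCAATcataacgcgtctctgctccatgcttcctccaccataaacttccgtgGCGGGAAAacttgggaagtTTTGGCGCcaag

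At E7.5, in whole embryos, no S-phase or mitosis gene passed the test. A gene was called where limma gave an adjusted p below 0.05 over all genes tested at that stage, on log2(normalised count + 1). Of the 46 genes, 28 were lower and 18 higher in KO by sign, with a median log2 fold change of -0.08, against -0.01 over 12492 genes. limma called 0 of the 46 and 0% of all genes tested, and edgeR likewise called 0 of the 46 and 0% of all. DESeq2 called 0 of the 46 and 0.248% of all genes. An unadjusted limma p below 0.05 was found for 0 of the 46, against 385 of all genes tested (3.08%). KO and WT values did not overlap for 11 of the 46, where 28.7% of all genes tested did not overlap. KO lay below in 9 of these, against 12.7% of all genes, and above in 2, against 16.1% of all genes.

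The 6 genes with the smallest p-values at E7.5 are given by library. Anln, the actin-binding scaffold of the contractile ring, had 458 and 478 normalised reads in KO libraries, against 618 and 775 in WT libraries (log2 fold change -0.56, SE 0.28). Mki67, which coats mitotic chromosomes and marks cycling cells, had 493 and 414 normalised reads in KO libraries, against 587 and 740.0 in WT libraries (log2 fold change -0.54, SE 0.29). Top2a, the topoisomerase that untangles sister DNA, had 2128 and 2140.3 normalised reads in KO and 2494 and 3344 in WT libraries. In these 3 genes both KO values lay below both WT values, but the WT libraries also lay well apart. Cdc25a, the phosphatase that activates Cdk2 and Cdk1, was the only one of the 6 with KO above WT and had 768 and 764 normalised reads in KO libraries, against 672 and 403 in WT libraries. The kinetochore motor Cenpe had 708 and 720.4 normalised reads in KO libraries, against 729.5 and 1408 in WT libraries, and its partner Cenpf had 759.8 and 893 normalised reads in KO and 826 and 1705 in WT libraries. For both of these WT1 was close to the KO libraries and WT2 was far above them.

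The WT libraries set much of the spread at E7.5. The helicase subunit Mcm2 had 3123 and 3086 normalised reads in KO libraries, against 3527 and 1459 in WT libraries, so the KO libraries lay between the WT libraries. The mitotic kinase Cdk1 had 2392 and 2710.1 normalised reads in KO libraries, against 2238 and 4048 in WT libraries, with the opposite order of the WT libraries. Leaving out WT2 turned the direction of both, to a log2 fold change of -0.18 for Mcm2 and 0.19 for Cdk1. Uterine gland and decidua markers summed to 7160 and 7271 in KO libraries, against 15744 and 18757 in WT libraries, and trophoblast markers to 30065 and 53451 in KO libraries, against 11731 and 7160 in WT libraries, and their part in these values was not tested.

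At E8.5, in Wnt1-Cre-positive crest, most of the 46 genes lay near no change, and 4 genes from more than 1 role stood higher in KO in every library. limma called 0 of the 46 and 0% of 12257 genes. An unadjusted limma p below 0.05 was found for 2 of the 46, Cep55 and Prc1, against 742 of all genes tested (6.05%). edgeR called 0 of the 46 and 0% of all genes, and DESeq2 called 1 of the 46, Cep55, and 0.228% of all genes. By sign 29 were higher and 17 lower, with a median log2 fold change of 0.05, against -0.03 over all genes tested. Under quantile normalisation 40 of the 46 were higher, with 11 signs turned. KO and WT values did not overlap for 5 genes, where 6.54% of all genes tested did not overlap. KO lay above in 4 of these, Cdc6, Cdc25c, Cep55 and Prc1, against 3.71% of all genes, and below in 1, Mcm7, against 2.82% of all genes.

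Cep55, which recruits the abscission machinery to the midbody, had 360.5, 346, 336 and 347 normalised reads in KO and 209, 187 and 164 in WT libraries (log2 fold change 0.90, SE 0.20, limma adjusted p 0.742). It averaged 347 ± 10.3 in KO libraries and 187 ± 22.2 in WT libraries (SD, n = 4 and 3), the 4 KO libraries lay close together, and DESeq2 on recovered reads gave an adjusted p of 0.00964. The authors' deposited table of E8.5 genes also lists it as higher in KO, with a log2 fold change of 0.90 and an adjusted p of 0.0164. Within sample code 169, the only code with both genotypes among the E8.5 libraries analysed, Cep55 had 347 normalised reads in KO4 and 187 in WT2. Prc1, which bundles antiparallel microtubules in the central spindle, had 1557, 1603, 1525 and 1089.6 normalised reads in KO libraries, against 729, 1008 and 854 in WT libraries (log2 fold change 0.74, SE 0.22, limma adjusted p 0.805). KO4 lay apart from the other KO libraries, and within code 169 Prc1 had 1089.6 in KO4 and 1008 in WT2. In the authors' deposited table Prc1 has a log2 fold change of 0.74 and an adjusted p of 0.242.

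4 other genes completed the 6 with the smallest p-values at E8.5. The licensing factor Cdc6 had 1085, 1365, 1406 and 1121 normalised reads in KO libraries, against 910.5, 1025 and 892 in WT libraries, with all KO values above the WT values. Cdc25a had 1249.9, 1241, 1224 and 823 normalised reads in KO and 723, 937 and 882 in WT libraries, with KO4 below 2 of the WT libraries. The RhoA exchange factor Ect2, which positions the contractile ring, had 697, 777, 853 and 407 normalised reads in KO libraries, against 358, 405 and 653 in WT libraries, and KO4 lay among the lower WT values while WT3 lay near the KO values. Rrm1, the large subunit of ribonucleotide reductase, had 3055, 3247, 3009 and 2237 normalised reads in KO libraries, against 2177, 2264 and 2292 in WT libraries. In Rrm1, 3 KO libraries stood above all WT libraries and KO4 did not. Fold changes of these 4 lay between 0.35 and 0.53 on the log2 scale, with limma adjusted p-values of 0.83 to 0.852.

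**Figure D2:**
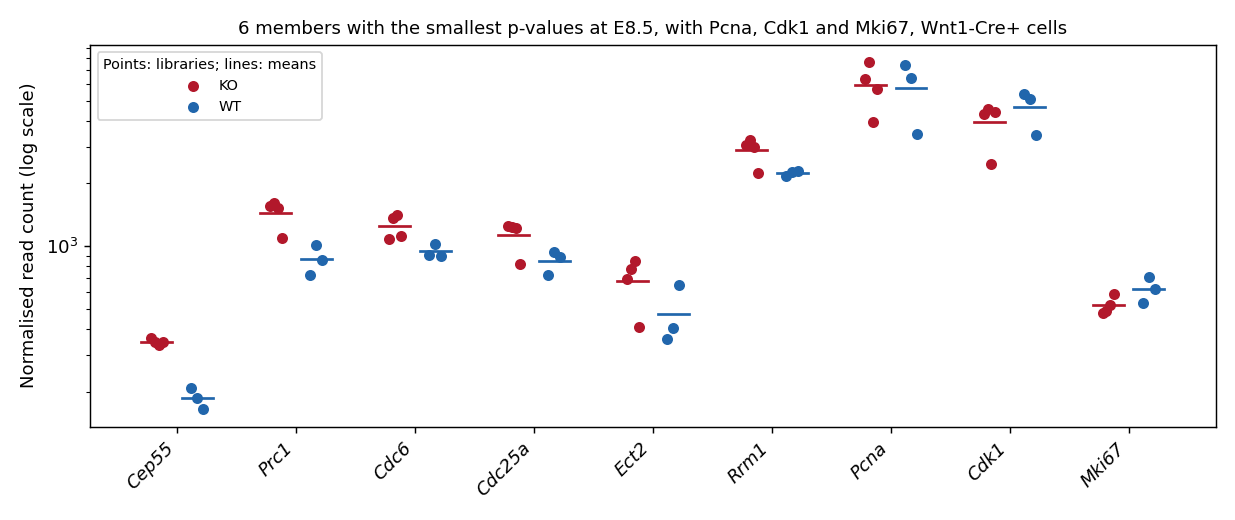
Normalised read counts (y axis, log scale) at E8.5 of the 6 genes with the smallest p-values and of Pcna, Cdk1 and Mki67 (x axis), one point per library, KO left of WT, lines at the means. Cep55, Prc1 and Cdc6 have all 4 KO points above the 3 WT points, and Pcna and Cdk1 have a low point in each genotype.

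The replication clamp Pcna showed how the E8.5 libraries varied within a genotype, with 6354, 7669.6, 3967 and 5675 normalised reads in KO and 7406, 6434 and 3473 in WT libraries. Cdk1 had 4326, 4556, 2492 and 4428 normalised reads in KO libraries, against 5384, 5100.1 and 3429 in WT libraries, and Mki67 had 477, 485, 523 and 589 normalised reads in KO libraries, against 534, 708 and 624 in WT libraries. KO3 and WT3 were the lowest of their groups for both Pcna and Cdk1. The same held for Ube2c, the ubiquitin-conjugating enzyme of the anaphase-promoting complex, with 6039, 5632, 3161 and 6191 normalised reads in KO and 5754, 6668 and 4084 in WT libraries, and for the survivin gene Birc5, with 4296, 4049, 2429.7 and 4982 normalised reads in KO libraries, against 5270.3, 5523 and 3052 in WT libraries. These 2 libraries also stood apart in how level followed transcript length over all genes: the Spearman correlation between a gene's deviation from the stage mean and its length was 0.51 in KO3, -0.44 in KO4 and between -0.04 and 0.02 in KO1 and KO2, against 0.53 in WT3, -0.47 in WT1 and -0.39 in WT2. Erythroid markers summed to 18705 and 28931 in KO1 and KO2, which share sample code 128, to 1441 and 1609 in KO3 and KO4, and to 1134 to 2256 in WT libraries. Without KO1 and KO2 the median of the 46 was -0.031 and the direction of Pcna turned, to -0.21, and limma called 0 of the 46.

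At E9.5, in Sox10-positive crest, 31 of the 46 genes were called by limma, 24 of them lower and 7 higher in KO, out of 12000 genes tested, of which 47.5% were called. The 7 that were higher were Birc5, Ube2c, Cenpa, Cdk1, Tyms, Ccnb2 and Pcna. The median log2 fold change of the 46 was -0.66, against -0.14 over all genes. An unadjusted limma p below 0.05 was found for 33 of the 46, against 56.7% of all genes. KO and WT values did not overlap for 41 of the 46, against 80.3% of all genes. KO lay below in 29 of these, against 41.7% of all genes, and above in 12, against 38.6% of all genes. edgeR called 31 of the 46 (24 lower) and 45.6% of all genes, and DESeq2 called 32 of the 46 (25 lower) and 48.9% of all genes. The authors' deposited tables of E9.5 genes hold 3282 lower and 3548 higher genes, not all with an adjusted p below 0.05. With an adjusted p below 0.05 they list 25 of the 46 as lower and 7 as higher. The count rested on each WT library: without WT1 limma called 8 of the 46 and 9.22% of all genes, and without WT2 it called 3 of the 46 and 6.62%. In those fits the lone WT library is assumed to vary like the others. Without KO1, the library with the high erythroid sum, 38 of the 46 and 72.5% of all genes were called, and without KO2 35 of the 46 and 59.8% of all genes.

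**Figure D3:**
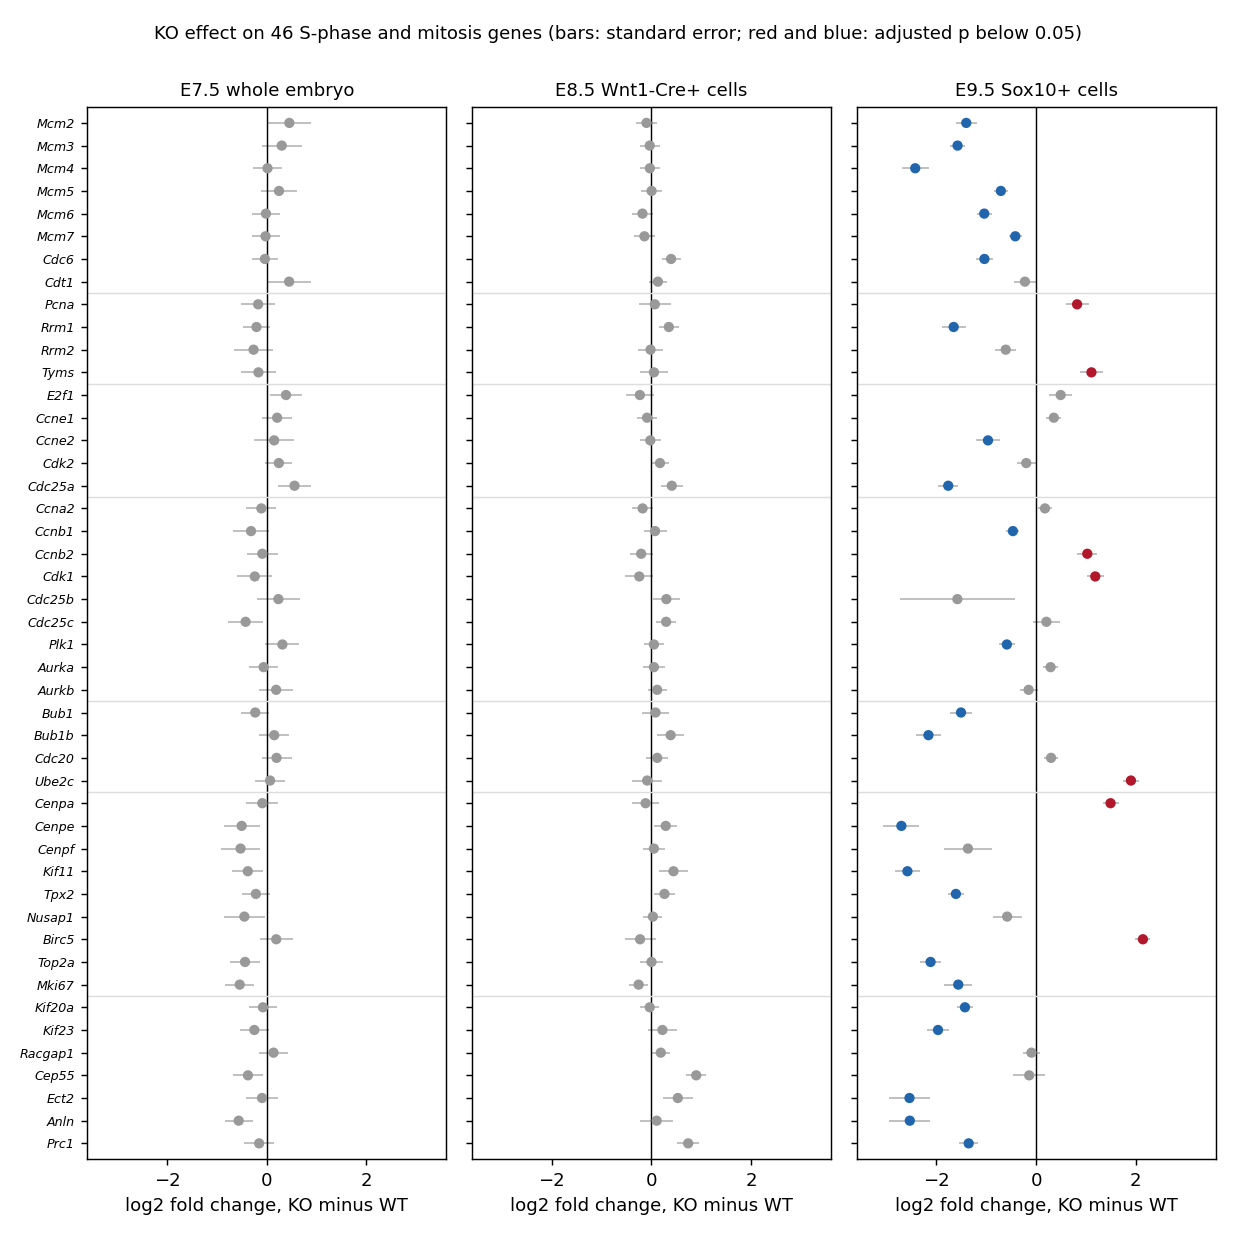
Log2 fold changes, KO minus WT (x axis), of the 46 genes (y axis, grouped by role from origin licensing at the top to cytokinesis at the bottom) at E7.5, E8.5 and E9.5, with bars of 1 standard error. Coloured points passed limma's adjusted p of 0.05, which 31 did at E9.5, 24 lower (blue) and 7 higher (red), and 0 did at the earlier stages.

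Of the 8 genes of origin licensing, 7 were called lower at E9.5. All 8 had a negative fold change under each scaling tried and with the length trend removed, but Mcm5 (-0.04, limma adjusted p 0.792) and Mcm7 (-0.07, limma adjusted p 0.714) were then no longer called. Mcm4, a subunit of the MCM helicase, fell the most, with 721 and 445 normalised reads in KO libraries, against 2827 and 3286 in WT libraries (log2 fold change -2.42, SE 0.27, limma adjusted p 0.00257). Mcm3 had 1200.2 and 1285 normalised reads in KO and 3606 and 3807 in WT libraries (-1.58, SE 0.15, limma adjusted p 0.00155). Mcm2 had 1839 and 1282 normalised reads in KO libraries, against 3886 and 4236 in WT libraries, and Mcm5 had 3187 and 2759 normalised reads in KO libraries, against 4762 and 4919.8 in WT libraries. The subunits of this 1 complex fell by unequal amounts, with log2 fold changes from -2.42 for Mcm4 through -1.04 for Mcm6 to -0.42 for Mcm7. Cdc6, which loads the helicase, had 608 and 659.6 normalised reads in KO and 1234 and 1370.1 in WT libraries. Cdt1, its partner in loading, did not pass (limma adjusted p 0.433), with 769.5 and 566 normalised reads in KO libraries, against 752 and 790.3 in WT libraries.

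Genes of the replication fork and nucleotide supply divided. Pcna was higher, with 5182 and 8021 normalised reads in KO libraries, against 3626 and 3663 in WT libraries (log2 fold change 0.82, SE 0.23, limma adjusted p 0.0345), but its direction turned under quantile normalisation, under library-size scaling and with the length trend removed. Thymidylate synthase, Tyms, had 3440.2 and 5177 normalised reads in KO and 2011 and 1898 in WT libraries (1.11, SE 0.23, limma adjusted p 0.0137). Rrm1 moved the other way, with 1569 and 1005 normalised reads in KO libraries, against 3792 and 4119 in WT libraries (-1.65, SE 0.24, limma adjusted p 0.0054). Its small-subunit partner Rrm2 had 5243 and 7773 normalised reads in KO libraries, against 9936 and 9539 in WT libraries and did not pass (limma adjusted p 0.0637). In all 4 genes the KO and WT values did not overlap.

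Among the G1/S regulators Cdc25a and Ccne2 were called lower. Cdc25a had 391 and 333 normalised reads in KO and 1177 and 1279.8 in WT libraries (log2 fold change -1.76, SE 0.20, limma adjusted p 0.00256). Ccne2, which encodes a cyclin E, had 186 and 196 normalised reads in KO libraries, against 344 and 404 in WT libraries. The other cyclin E gene, Ccne1, did not pass and had 3380.0 and 2917 normalised reads in KO libraries, against 2439 and 2468 in WT libraries. E2f1, the S-phase transcription factor, and Cdk2 did not pass either, with limma adjusted p-values of 0.131 and 0.416.

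The mitotic cyclins and kinases also divided. Cdk1 was higher, with 4992 and 6285 normalised reads in KO and 2551 and 2369 in WT libraries (log2 fold change 1.19, SE 0.17, limma adjusted p 0.00484). Its partner Ccnb2 was higher too, with 2638 and 3577 normalised reads in KO libraries, against 1613 and 1407 in WT libraries (1.03, SE 0.20, limma adjusted p 0.0127), although its sign turned with the length trend removed. The other B-type cyclin, Ccnb1, was lower, with 3036 and 3039.7 normalised reads in KO libraries, against 4293 and 4099 in WT libraries (-0.47, SE 0.13, limma adjusted p 0.0361). Plk1, a kinase of spindle assembly and mitotic entry, was lower, with 1470.5 and 1318 normalised reads in KO and 2227 and 1963 in WT libraries. Ccna2, Aurka, Aurkb, Cdc25b and Cdc25c did not pass, with limma adjusted p-values of 0.156 to 0.557. Cdc25b, the phosphatase that starts Cdk1 activation at the centrosome, differed most between its KO libraries, with 196 and 15.3 normalised reads in KO libraries, against 164 and 173 in WT libraries.

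Checkpoint genes were lower and the enzyme that follows them was higher, a contrast that did not hold with the length trend removed. Bub1b, a component of the mitotic checkpoint complex, had 569 and 388 normalised reads in KO libraries, against 1945 and 2272 in WT libraries (log2 fold change -2.16, SE 0.24, limma adjusted p 0.00268), and the checkpoint kinase gene Bub1 had 314 and 399.5 normalised reads in KO and 939 and 1081 in WT libraries. Ube2c, which passes ubiquitin to cyclin B through the anaphase-promoting complex, had 8300.2 and 9209 normalised reads in KO libraries, against 2529 and 2159 in WT libraries (1.90, SE 0.15, limma adjusted p 0.00108). With the length trend removed Bub1b remained lower, at -1.31, while Ube2c, at -0.13, and Bub1, at -0.82 (limma adjusted p 0.095), were no longer called. Cdc20, the activator of that complex, did not pass, with 3923 and 4201 normalised reads in KO libraries, against 3343 and 3249 in WT libraries and a limma adjusted p of 0.118.

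Centromere, spindle and chromosome genes held both extremes of the list. Birc5, the survivin subunit of the chromosomal passenger complex, was the most raised of the 46, with 9543 and 11309 normalised reads in KO and 2452 and 2253 in WT libraries (log2 fold change 2.14, SE 0.15, limma adjusted p 0.00082). Cenpa, the centromeric histone H3 variant, had 5537 and 6479 normalised reads in KO libraries, against 2278 and 1983 in WT libraries (1.49, SE 0.16, limma adjusted p 0.00233). Cenpe was the most lowered of the 46, with 194 and 100.3 normalised reads in KO libraries, against 884 and 946 in WT libraries (-2.70, SE 0.36, limma adjusted p 0.00416). With the length trend removed Cenpe remained lower, at -1.13, while Birc5, at 0.08, and Cenpa, at 0.15, were no longer called.

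Motor and spindle assembly genes were lower. Kif11, the motor that pushes spindle poles apart, had 181 and 173 normalised reads in KO and 911 and 1242 in WT libraries (log2 fold change -2.58, SE 0.24, limma adjusted p 0.00168). Tpx2, which activates Aurora A on the spindle, had 643 and 604 normalised reads in KO libraries, against 1839 and 1968 in WT libraries (-1.61, SE 0.16, limma adjusted p 0.002). Top2a had 506 and 408 normalised reads in KO libraries, against 1759 and 2216 in WT libraries (-2.12, SE 0.22, limma adjusted p 0.00197). In these 3 genes every KO value was below every WT value by far more than the replicates differed. With the length trend removed Kif11 remained lower, at -1.25, while Tpx2, at -0.42 (limma adjusted p 0.184), and Top2a were no longer called. Mki67 had 228 and 173 normalised reads in KO and 511 and 679 in WT libraries and also passed. Cenpf and Nusap1, a microtubule-bundling protein, had lower KO values that did not pass (limma adjusted p 0.0635 and 0.154).

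All 7 cytokinesis genes had a negative fold change at E9.5, and 5 passed. The sign of Cep55 turned under quantile normalisation, and that of Racgap1, to 0.33, with the length trend removed, where Kif20a, at -0.58 (limma adjusted p 0.118), was no longer called. Kif23, the centralspindlin motor, had 171 and 172 normalised reads in KO libraries, against 658 and 689 in WT libraries (log2 fold change -1.97, SE 0.22, limma adjusted p 0.00259). Kif20a, which brings Plk1 to the central spindle, had 718 and 791 normalised reads in KO libraries, against 1967 and 2089.7 in WT libraries (-1.43, SE 0.16, limma adjusted p 0.00274). Ect2 had 186 and 86.7 normalised reads in KO and 694 and 797 in WT libraries, Anln had 135 and 66.3 normalised reads in KO libraries, against 493 and 621 in WT libraries and Prc1 had 521 and 442 normalised reads in KO libraries, against 1246 and 1209 in WT libraries, and all 3 passed. Racgap1, the other subunit of centralspindlin, and Cep55 did not, and their KO and WT values overlapped, with 1258 and 1071 normalised reads in KO and 1227 and 1248 in WT libraries for Racgap1 and 339.9 and 206 normalised reads in KO libraries, against 293 and 289.7 in WT libraries for Cep55. Prc1 and Cep55, which lay above WT in every E8.5 KO library, did not do so at E9.5.

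**Figure D4:**
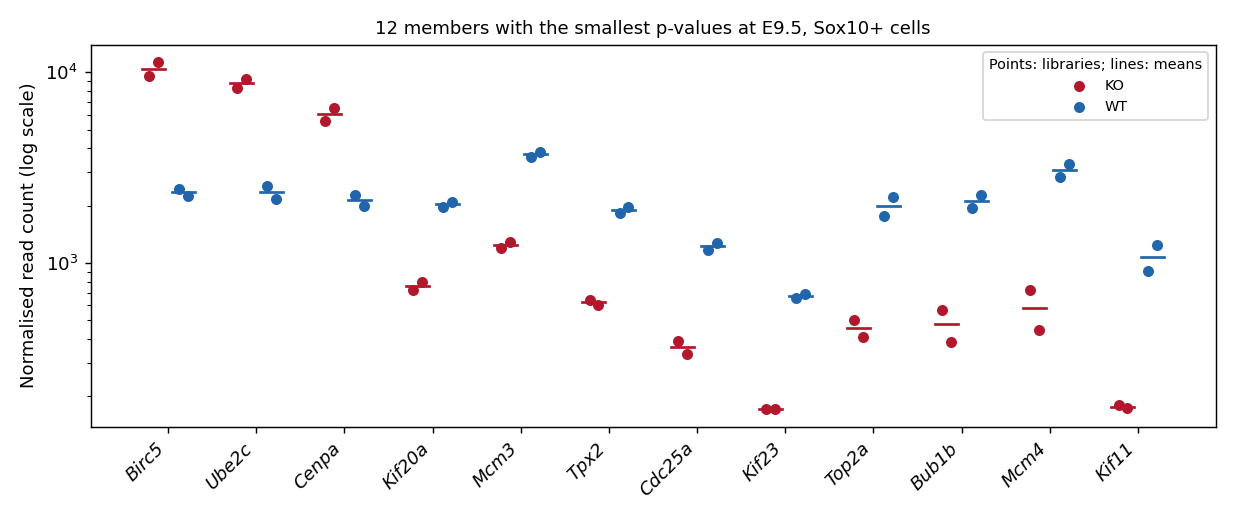
Normalised read counts (y axis, log scale) at E9.5 of the 12 genes with the smallest p-values (x axis), one point per library, KO left of WT, lines at the means. KO and WT points do not overlap in any of the 12, with Birc5, Ube2c and Cenpa higher in KO and the other 9 lower.

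The direction at E9.5 followed transcript length. The 7 called higher had annotated transcripts of 947 (Birc5) to 4375 bases (Cdk1), with a median of 1518. The 24 called lower had 2199 (Plk1) to 10061 bases (Mki67), with a median of 3505. Across the 46 genes the Spearman correlation of log2 fold change with transcript length was -0.775, and across all 11940 genes with a length it was -0.673. These are descriptions across genes, which share the same 4 libraries and are not replicates. Each KO library had lower values for longer genes relative to the stage mean, with correlations over all genes of -0.499 and -0.611 in KO libraries, against 0.631 and 0.688 in WT libraries. That mean is taken over the same 4 libraries, so opposite signs in KO and WT follow from any length difference between them.

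The 46 genes were also set against all genes of like length. Of genes up to 2000 bases, 5 of 10 in the list were higher and 0 lower, against 62.4% higher and 1.01% lower over all genes. Of genes above 2000 and up to 4000 bases, 1 of 27 was higher and 17 lower, against 13.4% higher and 21.7% lower over all genes. Of genes above 4000 bases, 1 of 9 was higher and 7 lower, against 4.76% higher and 44.5% lower over all genes. Median log2 fold changes in these 3 classes were 0.59, -0.97 and -2.12 for the list, against 1.49, -0.31 and -1.58 for all genes. In every class the list lay below all genes, a difference that was not tested.

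**Figure D5:**
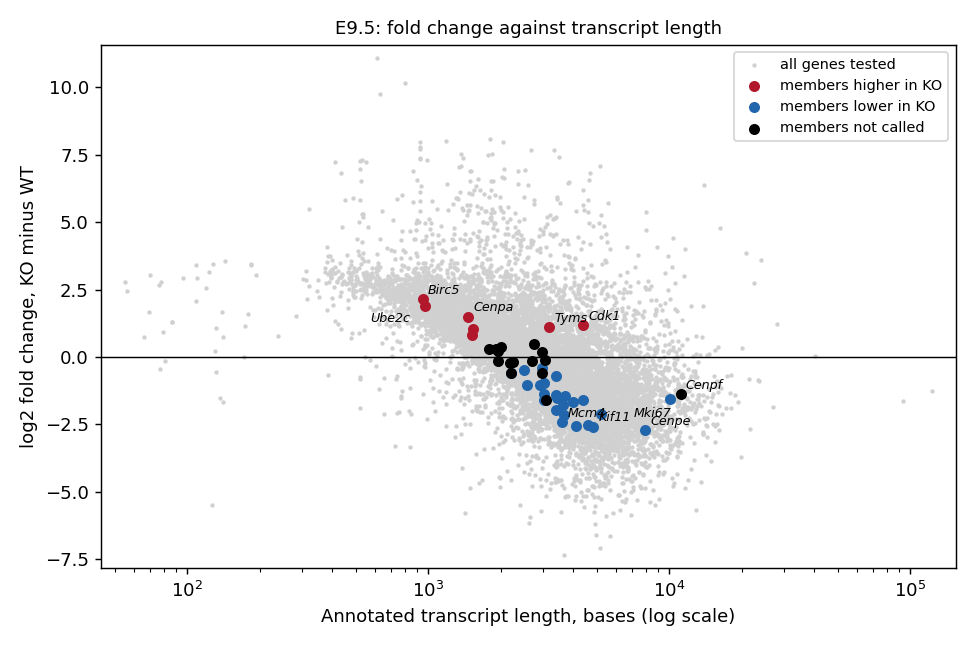
Log2 fold change at E9.5, KO minus WT (y axis), against annotated transcript length in bases (x axis, log scale), for all genes tested (grey) and the 46 genes (red, higher; blue, lower; black, not called). Short genes such as Birc5 (947 bases) lie high and long genes such as Cenpe (7910 bases) lie low, with Cdk1 and Tyms above the grey cloud's centre at their length.

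When a smooth trend over transcript length was removed from each E9.5 library, limma called 22 of the 46, 19 lower and 3 higher, and 2327 of all genes (19.5%). Of the 31 genes called without this step, 18 were still called. The 3 higher were Cdk1 (log2 fold change 2.38), Tyms (1.62) and Ccna2 (0.53). This fit kept the deposited scaling, and the sign of Ccna2 turned under library-size scaling and under quantile normalisation. The step used annotated lengths, 4375 bases for Cdk1, 3163 for Tyms and 2965 for Ccna2. Whether transcripts of these lengths were the ones expressed was not checked, so the sizes after this step depend on the annotation. The calls of Mcm5, Mcm7, Pcna, Ccne2, Ccnb2, Bub1, Ube2c, Cenpa, Tpx2, Birc5, Top2a, Mki67 and Kif20a were lost, Mki67 lying at -0.00. Mcm4 (-1.63), Ect2 (-1.48), Bub1b (-1.31), Kif23 (-1.29), Anln (-1.26), Kif11 (-1.25) and Mcm3 (-1.17) were still called lower, as were Mcm2, Mcm6, Cdc6, Rrm1, Cdc25a, Ccnb1, Plk1, Cenpe and Prc1. Top2a, at -0.70, narrowly missed the threshold (limma adjusted p 0.0518). Aurkb (-0.89), Cdc20 (-0.64) and Rrm2 (-1.04) were called lower in that fit and not without it. This alternative was chosen after the data were seen, and whether the length relation is technical was not tested.

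The 46 genes took a smaller share of reads in E9.5 KO libraries, 0.682% and 0.670% in KO libraries against 1.30% and 1.30% in WT libraries. The 100 most abundant genes took 29.7% and 29.1% of reads in KO libraries, against 19.2% and 18.2% in WT libraries. The deposited scaling therefore matters to the size of each change. Scaling by library size alone gave a median log2 fold change of -1.01 over all genes and of -1.55 over the 46, with 35 of the 46 called lower and 3 higher, where 55.9% of all genes were called, 5085 lower and 1622 higher. Rescaling by TMM gave a median of -0.28 over all genes and of -0.81 over the 46. Relative to the median of all genes under the deposited scaling, Mcm4 lay at -2.29, Kif11 at -2.44, Cdk1 at 1.32 and Birc5 at 2.28.

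Levels were also set against each other within a genotype as RPKM, which divides a gene's reads by its transcript length in kilobases and by the library's total reads. At E9.5 the highest of the 46 in KO was Birc5, at 795 ± 30.9 RPKM, followed by Ube2c, at 655 ± 5.02 RPKM. In WT the highest was Rrm2, at 596 ± 23.3 RPKM, followed by Birc5, at 334 ± 23.4 RPKM. The lowest in KO was Cenpe, at 1.38 ± 0.719 RPKM, and the lowest in WT was Cdc25b, at 7.33 ± 0.204 RPKM. Mki67 was next to lowest in both genotypes. Cdk1 ranked 10 of 46 in KO and 23 in WT, and Mcm4 ranked 29 in KO and 19 in WT. Dividing by length does not remove the difference in length trend between KO and WT libraries, so these ranks carry it. With that trend removed, Birc5, Ube2c and Mki67 were no longer called, while Cenpe, Cdk1 and Mcm4 still were.

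13 of the 46 genes share exon bases with another annotated gene, 12 of them on the opposite strand, and the library kit does not mark strand. Kif20a shares 1271 bases with Cdc23, Prc1 911 with Rccd1, Ube2c 592 with Tnnc2 and Ccna2 510 with Exosc9. Reads over the opposite-strand stretches cannot be assigned to either gene by strand, so the values of these 12 are less certain. Some of these stretches are short, such as 34 bases in Cdk2. The remaining gene, Top2a, shares 122 bases with a small nucleolar RNA gene on its own strand.

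Other genes of the same processes were also called in both directions at E9.5. Of 54 other replication genes, 17 were called higher and 23 lower in KO, where 24.5% of all genes were called higher and 23% lower. Their median log2 fold change was -0.35. Among them the replication protein A subunit Rpa3 had 3025 and 4124 normalised reads in KO libraries, against 669 and 692 in WT libraries and was higher (log2 fold change 2.37, limma adjusted p 0.00127). The maintenance methyltransferase Dnmt1 had 356 and 257 normalised reads in KO and 1364 and 1928 in WT libraries and was lower (-2.42, limma adjusted p 0.00269). The GINS subunit Gins2, with a transcript of 3900 bases, was higher (1.82, limma adjusted p 0.00185).

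Of 72 other mitosis genes, 13 were called higher and 40 lower, against the same shares over all genes, with a median of -1.11. The Cdk-binding subunit Cks2 had 5322 and 6231 normalised reads in KO libraries, against 1491 and 1347 in WT libraries and was higher (log2 fold change 2.02, limma adjusted p 0.00082). The condensin subunit Smc2 had 448 and 393 normalised reads in KO libraries, against 1629 and 1638 in WT libraries and was lower (-1.96, limma adjusted p 0.0015). Incenp, which binds the Birc5 product in the passenger complex, was lower too, with 353 and 311 normalised reads in KO and 1306 and 1236 in WT libraries. Birc5, from the same complex, was higher, but not with the length trend removed.

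All 5 tested inhibitors of cyclin-dependent kinases had a positive fold change at E9.5, under each scaling tried and with the length trend removed, and 2 of the 5 were called higher, where 24.5% of all genes and 62.4% of genes up to 2000 bases were called higher. Cdkn3, a phosphatase that acts on Cdk1 and Cdk2, had 744 and 1035 normalised reads in KO libraries, against 126 and 102 in WT libraries (2.94, limma adjusted p 0.00173). Cdkn2d, an inhibitor of Cdk4 and Cdk6, had 457 and 649 normalised reads in KO libraries, against 126 and 117 in WT libraries (2.16, limma adjusted p 0.00411). Cdkn1a, the p21 inhibitor, did not pass (limma adjusted p 0.0657), with 55.9 and 104 normalised reads in KO and 23.3 and 26.7 in WT libraries.

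Messages of replication-dependent histone genes are made in S phase and mostly lack poly(A) tails. At E9.5 28 of 28 tested were higher in KO, with a median log2 fold change of 3.09. All were called, where 24.5% of all genes and 62.4% of genes up to 2000 bases were called higher. All 28 stayed positive under each scaling tried, and 24 of 28 did so with the length trend removed, where the median was 0.64. Hist1h2ag had 30444 and 33911 normalised reads in KO libraries, against 4036 and 3254 in WT libraries, and the copies share near-identical sequence, so single copies are uncertain. The kit primes on poly(A) tails. At the earlier stages most signs were negative, in 23 of 26 tested histone genes at E7.5 (median -0.71) and 26 of 28 at E8.5 (median -0.53). limma called 0 of them at either stage. An unadjusted limma p below 0.05 was found for 0 at E7.5 and 5 at E8.5, against 3.08% and 6.05% of all genes. Summed histone levels at E7.5 were 4122 and 6161 in KO libraries, against 4404 in WT1 and 15126 in WT2, so only WT2 lay above the KO libraries. The E8.5 sums ran from 16954 in KO3 to 56970 in KO4, and from 20745 in WT3 to 76746 in WT2, a wide spread within each genotype.

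At the earlier stages limma called 0 of the 54 other replication genes, 0 of the 72 other mitosis genes and 0 of the tested kinase inhibitors. At E7.5, 0 of these other genes had an unadjusted p below 0.05, against 3.08% of all genes. At E8.5, 4 of the replication genes and 4 of the mitosis genes did, against 6.05% of all genes, which is near the share of these genes. The histone chaperone gene Asf1b had 1599, 1797, 1062 and 1190.5 normalised reads in KO libraries, against 840.0, 956 and 502 in WT libraries at E8.5 (log2 fold change 0.90, limma adjusted p 0.807), with all KO values above the WT values. The securin gene Pttg1 had 693, 638, 700.5 and 903 normalised reads in KO and 2047, 894 and 1063 in WT libraries, and WT1 alone stood far above the rest.

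The KO effect itself was compared between stages on TMM-scaled RPM, reads scaled to the library's total, of all 15 libraries. The E9.5 effect differed from the E7.5 effect in 25 of the 46 genes, 22 lower and 3 higher, where 36.4% of 12907 genes differed. It differed from the E8.5 effect in 27, 22 lower and 5 higher, where 44.2% of all genes differed. Both comparisons use the same 4 E9.5 libraries, and stage is bound up with the cells taken, whole embryos at E7.5 and sorted crest later. The E8.5 and E7.5 effects differed in 0 of the 46 and 0% of all genes, with 2 of the 46 and 626 of all genes below an unadjusted p of 0.05 in limma. Without E9.5 WT2, 14 of the 46 and 17.6% of all genes differed between E9.5 and E7.5, and 20 of the 46 and 27.5% of all genes between E9.5 and E8.5. With library-size scaling 33 of the 46 differed between E9.5 and E7.5, 31 lower and 2 higher, where 42.3% of all genes differed. Between E9.5 and E8.5 it was then 39, 37 lower and 2 higher, where 51.2% of all genes differed.

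Mcm4 had a difference of effects of -2.59 between E9.5 and E7.5 (SE 0.36, limma adjusted p 0.000575) and of -2.53 between E9.5 and E8.5 (limma adjusted p 0.000192). Kif11 had -2.32 and -3.11, with limma adjusted p-values of 0.00469 and 0.000302. Birc5 had 1.78 and 2.22, with limma adjusted p-values of 0.0137 and 0.00151. Mcm4, Kif11 and Birc5 were chosen by their small E9.5 p-values in the same libraries, so differences in their E9.5 direction were nearly fixed beforehand. For Cep55 the E9.5 effect lay below the E8.5 effect, with a difference of -1.14 on the log2 scale (SE 0.34, limma adjusted p 0.0152). Pcna and Tyms, though higher at E9.5, did not differ between stages at the threshold, with limma adjusted p-values of 0.318 and 0.0986 against E8.5.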

How the data were processed

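RNA-seq of whole embryos and sorted neural crest was deposited as 1 table of normalised values per stage. Per the labels' protocols, RNA was extracted with a miRNeasy kit and Trizol-LS and libraries were made with SMART-Seq v4 Ultra Low Input and Nextera XT, which do not mark strand. The submitters' processing notes name FastQC 0.11.5, STAR 2.7.0f and the build mm10. Which counter, annotation and normalising tool were used is not stated there. The values the authors deposited are a signal, gene counts divided by 1 factor per library. Divided by the worth of 1 read, 100% of the values of each library came out whole, within 0.01 of a read, and these reads gave the depths. The authors also deposited tables of selected genes with log2 fold changes, standard errors, test scores (fold change over its error), p-values and adjusted p-values, per the file headers. The E7.5 tables of that kind were not used here.

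Groups came from the sample titles, and each stage was tested apart, since each table was scaled apart. A stage mean of at least 10 was required, which all 46 genes met at each stage, and the scale of analysis was log2(value + 1). The test of KO against WT was that of limma 3.58.1 in R 4.3.3, with a trended prior, two-sided, with Benjamini-Hochberg adjustment over all genes of the stage and a threshold of 0.05. As alternatives the recovered reads were tested with the quasi-likelihood test of edgeR 4.0.16 and with DESeq2 1.42.0. The fits were tested on simulated data. The design assumed these tests before the unit was known, and the signal unit needed no other. Effects were compared between stages with limma on log2(TMM-scaled RPM + 1) of the recovered reads, with 3 contrasts. Transcript lengths, 3′UTRs and exon overlaps came from GENCODE M21 (GRCm38). The length of a gene was that of the transcript annotated as principal, and the longest coding one where several or none were so marked. Per stage, the rule for named genes took the 12 called genes with the smallest p-values, or 6 where fewer were called, and a set of 13 further genes. At E9.5 the remaining genes were named after their values were seen, as were Birc5 and Ube2c at E8.5. Erythroid sums, length trends and their alternatives were looked at for the same reason in every stage. The members, lists and tests were chosen with earlier results of these data known. The same replicate number does not mark a shared animal or litter in the labels, and same-numbered libraries did not all deviate together (correlations of 0.08, -0.02 and 0.55 at E8.5), so no block was used. Figures were drawn with matplotlib 3.10.9 in Python 3.11.15.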

Additional observations from a re-analysis of the deposited data

Results flagged for a closer look

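Among the genes with E8.5 values given by library above, 3 had a KO library far from the other KO libraries by Dixon's criterion. The KO group held 4 libraries, and the criterion flags about 1 in 20 groups by chance. Prc1 was lowest in KO4, at 1089.6 normalised reads, against 1525 to 1603 in the other KO libraries. Cdc25a was also lowest in KO4, at 823, against 1224 to 1249.9 in the others. Cdk1 was lowest in KO3, at 2492, against 4326 to 4556 in the others. Genes of the list not given by library at E8.5 also had a KO library far apart. Mcm7 had 4941 normalised reads in KO1, against 5848 to 5882 in the other KO libraries. E2f1 had 1385 in KO4, against 628 to 689 in the others. The 3 genes are therefore not a count over the whole list and cannot be set against the rate of 1 in 20.

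The KO effect differed between stages by limma's test of the difference itself in 25 of the 46 genes for E9.5 against E7.5 and in 27 for E9.5 against E8.5. Over all 12907 genes, 36.4% and 44.2% differed in the same comparisons. The 12 genes with the smallest p-values at E9.5 were picked from the same E9.5 libraries. Differences in their E9.5 direction were therefore nearly fixed beforehand. Among these 12, Birc5, Ube2c and Cenpa had a higher effect at E9.5 than at E7.5, with differences on the log2 scale of 1.78 for Birc5, 1.66 for Ube2c and 1.41 for Cenpa. The differences from E8.5 were 2.22 for Birc5, 1.84 for Ube2c and 1.46 for Cenpa. With the length trend removed at E9.5, Birc5, Ube2c, Cenpa, Top2a, Tpx2 and Kif20a were no longer called. The other 9 of the 12 genes had a lower effect at E9.5. Against E7.5 the differences were -2.04 for Mcm3, -2.32 for Kif11, -1.83 for Top2a, -1.55 for Tpx2, -2.46 for Cdc25a, -2.59 for Mcm4, -1.84 for Kif23, -2.46 for Bub1b and -1.51 for Kif20a. Against E8.5 they were -1.68 for Mcm3, -3.11 for Kif11, -2.25 for Top2a, -2.004 for Tpx2, -2.29 for Cdc25a, -2.53 for Mcm4, -2.28 for Kif23, -2.67 for Bub1b and -1.53 for Kif20a.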

How the results depend on the processing

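The E9.5 direction of the licensing genes and of most called genes held under the settings tried, but its count rests on 2 libraries per group and, in part, on transcript length. At E7.5 the number of genes called over all genes was 0, against 31 with DESeq2, 18 in the libraries of code 239 and 0 to 39 with a library left out, and no member was called in any of these. At E8.5 DESeq2 called 28 genes and 1 of the 46, and the median of the 46 was 0.16 after quantile normalisation, -0.031 without KO1 and KO2 and -0.0030 to 0.14 with a library left out, with 0 to 3 genes called over all genes. The direction of Pcna at E8.5 turned without KO1 and KO2 (-0.21), and its range with a library left out was -0.26 to 0.28. At E7.5 those ranges were -0.18 to 1.09 for Mcm2, -0.67 to 0.19 for Cdk1 and -0.25 to -0.021 for the median of the 46. At E9.5 the median of the 46 was -0.81 with TMM, -1.55 with library-size scaling and -1.36 with quantile normalisation, and 2327 genes were called with the length trend removed. With a library left out, 3 to 38 of the 46 and 794 to 8694 of all genes were called, with a median of -0.87 to -0.56. Fold changes then ran from -3.38 to 0.22 for Cdc25b, -0.12 to 0.54 for Cdc25c, -0.21 to 0.024 for Racgap1 and -0.50 to 0.22 for Cep55. Signs turned at E9.5 with the length trend removed for Ube2c (-0.13), Pcna (-0.45), Ccne1 (-0.33), Ccnb2 (-0.23), Cdc25c (-0.54), Aurka (-0.51), Cdc20 (-0.64), Cenpf (0.18) and Racgap1 (0.33). They turned with library-size scaling for Pcna (-0.068), E2f1 (-0.40), Ccne1 (-0.53), Ccna2 (-0.71), Cdc25c (-0.68), Aurka (-0.60) and Cdc20 (-0.59). They turned with quantile normalisation for Pcna (-0.29), Ccne1 (-0.47), Ccna2 (-0.75), Aurka (-0.42), Cdc20 (-0.71) and Cep55 (0.23). The number of the 46 whose effect differed between stages was 14 to 27 for E9.5 against E7.5, and 20 to 31 for E9.5 against E8.5, with a library left out. A lone library in such a fit is assumed to vary like the others. The cause of these changes was not tested. A replicate block by replicate number called 47 genes at E7.5 (0 of the 46), 678 at E8.5 (4 of the 46) and 5722 at E9.5 (30 of the 46); at E8.5 KO4 then drops out, and not every library correlated best with its own number. Same-numbered libraries deviated in opposite directions at E7.5 (correlation -0.12) and E9.5 (-0.17), and a crossed replicate block called 48 genes at E7.5 (0 of the 46) and 6665 at E9.5 (34 of the 46).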
